A study of Mus musculus with 3 samples.

Results

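The Egr genes and the PEA3 genes encode 2 groups of transcription factors, and their transcript levels were read from RNA-seq of primary mouse fibroblasts. The members were taken by name as Egr1, Egr2, Egr3 and Egr4 and the PEA3 genes Etv1, Etv4 and Etv5, which makes 7 of the 43472 rows of the gene table. The fibroblasts came from tail tips of C57BL/6 mice and were wounded by a scratch in culture. All 3 libraries belong to the same condition, in which the cells received the soluble micrograft (MG), a cell-free extract of mouse skin biopsies diluted 1:10 in growth medium, for 5 h in the presence of 1 μM PD0325901, which blocks the kinase MEK. Replicates 1, 2 and 3 are biological replicates according to the series' design text. Neither untreated cells nor cells with MG alone were analysed here. Treatments were therefore not compared, and no value below is a response to MG or to the inhibitor.

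Egr proteins are zinc finger factors of the immediate-early class, whose genes are switched on within minutes by growth factors, stress and wounding and are silent again soon after. Serum response factor and its ternary complex partners such as Elk1, which ERK phosphorylates, act at CArG boxes in the control regions of several of these genes. PEA3 proteins form a subgroup of the Ets family, bind DNA through the Ets domain and act downstream of FGF and other receptor tyrosine kinases. The transcripts of Etv4 and Etv5 are widely used as readouts of ERK signalling, which MEK feeds.

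The libraries held between 17.2 M and 27.0 M reads on genes. The values are normalized counts, read counts divided by 1 size factor per library, and 1 read equals 0.868, 0.705 and 1.19 normalized counts in replicates 1, 2 and 3. Replicate 2 stood apart from the others, with 1325 of the 13154 genes of mean 10 or more lying more than 2-fold from both other libraries, against 560 for replicate 1 and 471 for replicate 3. All 9 fibroblast markers read here, among them Col1a1, Pdgfrb and Vim, reached 10 normalized counts in each library, although Thy1 (2031, 15760 and 1652) was far higher in replicate 2 and Lum (5073, 289 and 1164) differed between all libraries. The keratinocyte genes Krt15 and Krt1 were at 0 reads in all libraries, Krt5 had at most 1 read and Krt14 at most 2, while Krt10 had 80.8, 39.5 and 32.0 normalized counts.

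Of the 7 genes, only Etv4, Etv5 and Egr1 were detected, meaning 10 normalized counts or more in each of the libraries. The pair Etv4 and Etv5 lay well above Egr1, and Egr2, Egr3, Egr4 and Etv1 rested on 0 to 14 reads per library. Levels of different genes are compared per kilobase (kb) of exon, since longer transcripts collect more reads. On this scale Etv4 had a mean of 81.6 ± 32.0 normalized counts per kb, Etv5 53.3 ± 15.0 and Egr1 7.76 ± 4.65 (SD, n = 3). Among the 11622 detected genes with a known exonic length, these means stood at percentiles 43.0, 33.2 and 5.22.

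**Figure D1:**
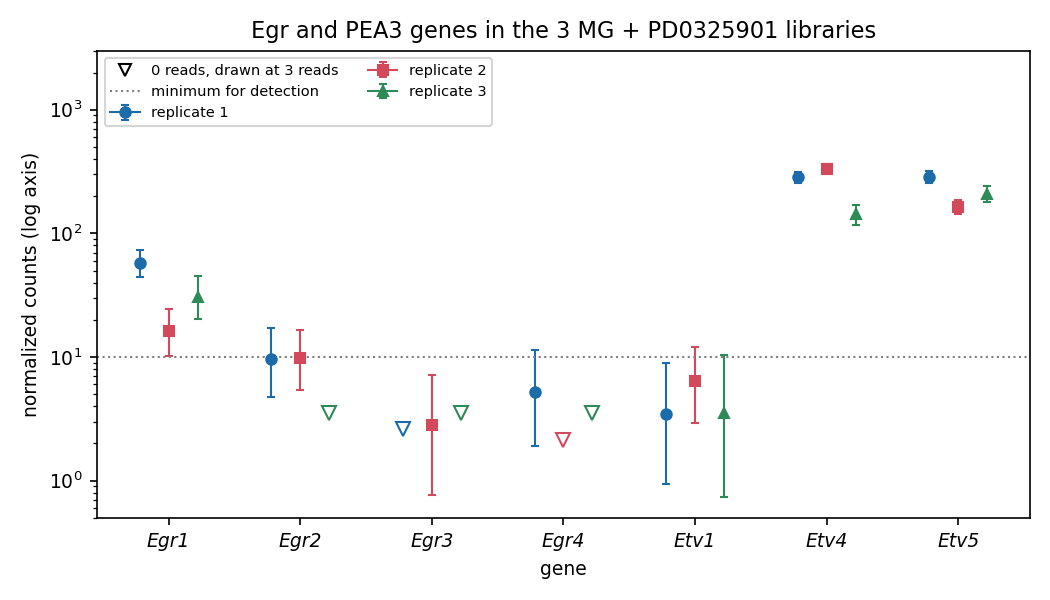
Normalized counts (log axis) of the 7 genes in replicates 1, 2 and 3, with bars for the 95% Poisson interval of the read count and open triangles at 3 reads where a library had 0 reads. Etv4 and Etv5 lie between 142 and 334 in every library, Egr1 between 16.2 and 57.3, and the other 4 genes at or below 9.86.

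Etv4, also known as PEA3 and the gene after which the group is named, lies on chromosome 11 from 101769742 to 101785371 on the minus strand (GRCm38). Its normalized counts in the libraries of replicates 1, 2 and 3 were 284, 334 and 142, from 327, 474 and 120 reads. Replicate 2 was the highest library and replicate 3 stood clearly below both others. The level in replicate 2 was 2.35-fold that in replicate 3 (95% interval 1.92 to 2.89, exact binomial test on reads, adjusted p = 1.6e-18). Replicate 1 was 2.00-fold above replicate 3 (1.61 to 2.48, exact binomial test, adjusted p = 9.42e-11). Replicate 2 was 1.18-fold above replicate 1, with an interval of 1.02 to 1.36 that nearly reached equality (exact binomial test, adjusted p = 0.0373). These tests compare single libraries of the same condition, are adjusted over all genes tested and cover counting error only. They thus say how well a difference between 2 libraries was measured and not how treatments differ.

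Etv5, also called Erm, is encoded on chromosome 16 from 22381309 to 22439719 on the minus strand. Its normalized counts were 285, 163 and 207 in replicates 1, 2 and 3, from 328, 232 and 175 reads. Here replicate 1 was the highest library and replicate 2 the lowest, a different order from that of Etv4. Replicate 1 was 1.74-fold above replicate 2 (95% interval 1.47 to 2.07, exact binomial test, adjusted p = 2.49e-10) and 1.37-fold above replicate 3 (1.14 to 1.66, adjusted p = 0.0019). The 1.27-fold difference between replicates 3 and 2 had an adjusted p of 0.0306 by the exact binomial test, and of 0.134 when libraries were scaled to equal totals.

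Etv4 and Etv5 made up nearly the whole sum of PEA3 transcripts, and their ratio shifted between libraries. Etv4 held 56.8%, 72.7% and 47.4% of the summed PEA3 level per kb in replicates 1, 2 and 3, and Etv5 held 43.1%, 26.9% and 52.3%. The per kb levels of the pair overlapped, at 45.8 to 108 for Etv4 and 39.8 to 69.4 for Etv5, so their order was not separated. A share of reads within a library does not depend on how libraries are scaled. Etv5 reads were 50.1% of the Etv4 and Etv5 reads together in replicate 1 (exact 95% interval 46.2 to 54.0), 32.9% in replicate 2 (29.4 to 36.5) and 59.3% in replicate 3 (53.5 to 65.0). The interval of replicate 2 did not meet those of the other libraries, and the intervals of replicates 1 and 3 met only at their ends. This comparison was added after values were seen, and other pairs of genes were not read as a background. Most single genes differed too by the exact binomial test, 69.1% between replicates 1 and 2, 52.0% between 1 and 3 and 62.6% between 2 and 3. The sum of the PEA3 genes was 161, 148 and 96.6 normalized counts per kb in replicates 1, 2 and 3.

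**Figure D2:**
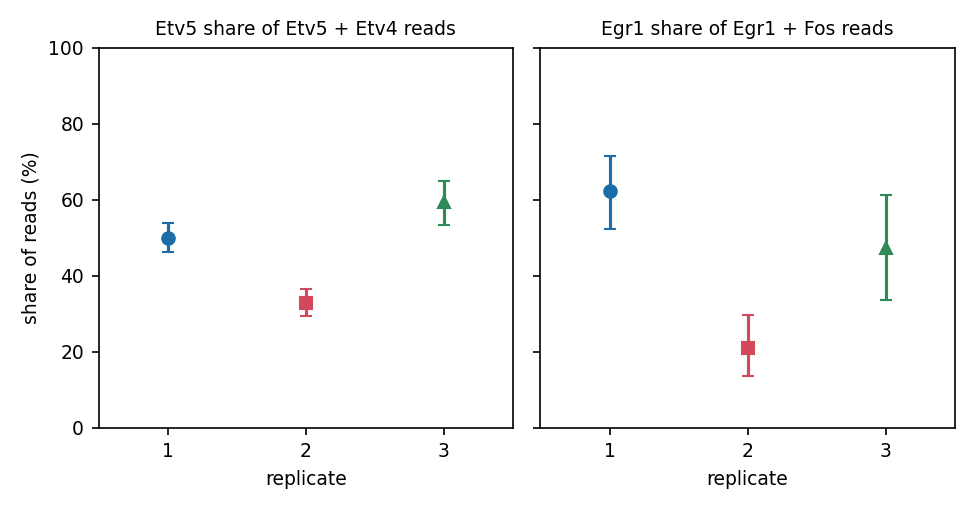
Share of reads (percent) of Etv5 within Etv5 plus Etv4 (left) and of Egr1 within Egr1 plus Fos (right) in each replicate, with exact 95% binomial intervals. Replicate 2 has the lowest share in both panels, 32.9% for Etv5 and 20.9% for Egr1.

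Etv1, also called ER81 and the third gene of the group, lies on chromosome 12 from 38779380 to 38870484. Its level was 3.47, 6.34 and 3.56 normalized counts in that order of replicates, from 4, 9 and 3 reads. The counting intervals of all libraries overlapped, and no pair with enough reads for a test was called. Per kb its mean was 0.335 ± 0.123 (SD, n = 3), and Etv4 exceeded it by 171-fold to 350-fold within single libraries. These ratios rest on few Etv1 reads and on an exonic length of 13.3 kb summed over 13 transcripts.

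Of the 26 Ets family genes read, 15 were detected. Etv4 and Etv5 held middle places among the 26 and lower places among the 15. Elk3, a ternary complex partner of serum response factor, led with 464 ± 78.1 normalized counts per kb (SD, n = 3), followed by Ets1 with 297 ± 38.1 and Erf, an Ets repressor that ERK exports from the nucleus, with 217 ± 63.6. By mean, Etv4 ranked 11, Etv5 ranked 13 and Etv1 ranked 21. Etv4 overlapped both its neighbours in the order, Elf4 and Elf2, and Etv5 overlapped Elf2 and Etv3. By the spread between replicates none of these neighbours was therefore separated. Inside each library Etv5 still stood above Etv3 (69.4, 39.8 and 50.6 against 38.2, 38.5 and 42.2 per kb), narrowly in replicate 2. In single libraries Etv4 ranked 9, 10 and 13 and Etv5 ranked 12, 13 and 12. Among detected Ets genes only Etv4 varied by more than 2-fold from lowest to highest library, at 2.35-fold. That is 6.67% of the 15, against 22.0% of all detected genes, and Elk4 came next with 1.92-fold. The neighbours of Etv4 and Etv5 in the order of levels, Elf4, Elf2 and Etv3, varied by 1.77-fold, 1.05-fold and 1.11-fold.

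**Figure D3:**
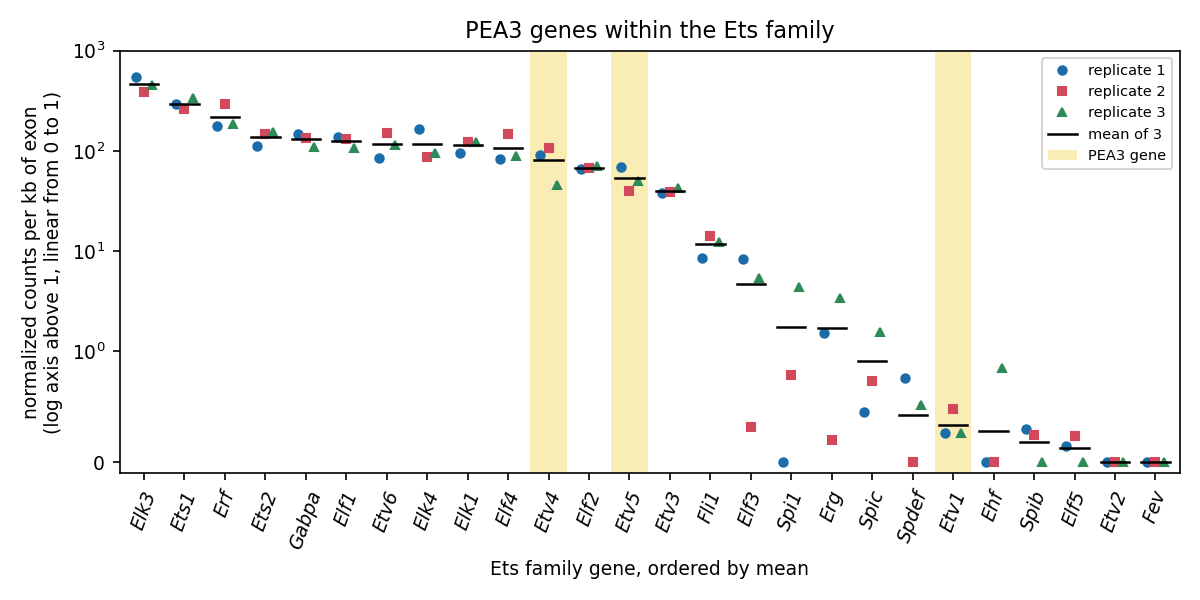
Normalized counts per kb of exon of 26 Ets family genes in order of the mean (axis linear from 0 to 1 and logarithmic above), with symbols for replicates and bars for the mean of 3. Etv4 and Etv5, shaded, lie among the lower of the well expressed genes at means of 81.6 and 53.3, and Etv1 lies near 0 at 0.335.

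Egr1, also known as Zif268 and Krox24, is encoded on chromosome 18 from 34859823 to 34864984 on the plus strand. The level was 57.3 normalized counts in replicate 1, 16.2 in replicate 2 and 30.8 in replicate 3, from 66, 23 and 26 reads. Replicate 1 stood above the others, and its counting interval of 44.3 to 72.9 met that of replicate 3 (20.1 to 45.2) only at its end. Replicate 1 was 3.54-fold above replicate 2 (95% interval 2.17 to 5.96, exact binomial test, adjusted p = 6.34e-08) and 1.86-fold above replicate 3 (1.17 to 3.05, adjusted p = 0.0137). Replicate 3 was 1.90-fold above replicate 2 (1.04 to 3.49) with an adjusted p of 0.0426 by the exact binomial test, and of 0.0837 with libraries scaled to equal totals. Per kb, every Egr1 value (3.61 to 12.8) lay below every value of Etv4 and Etv5, whose lowest was 39.8. Fos, the immediate-early gene of the AP-1 family, was set beside Egr1 after its values were seen. Egr1 made up 62.3% of the Egr1 and Fos reads in replicate 1 (exact 95% interval 52.3 to 71.5), 20.9% in replicate 2 (13.7 to 29.7) and 47.3% in replicate 3 (33.7 to 61.2). Thus the balance of these genes differed in replicate 2 from both other libraries beyond counting error, with Egr1 lowest and Fos highest there. Of all single genes tested, 69.1% differed between replicates 1 and 2 and 62.6% between replicates 2 and 3 by the exact binomial test.

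Egr2, Egr3 and Egr4 were at the edge of detection. Egr2, or Krox20, known from myelinating Schwann cells, stood at 9.55 normalized counts in replicate 1, 9.86 in replicate 2 and 0 in replicate 3, from 11, 14 and 0 reads. A count of 0 allows up to 3 reads, or 3.56 normalized counts in replicate 3. The measured Egr2 values were 2.69-fold above this limit in replicate 1 and 2.77-fold above it in replicate 2. With counting error of both libraries included, the ratios to replicate 3 had lower interval limits of 1.84-fold for replicate 1 and 1.97-fold for replicate 2. The exact binomial test called both differences (adjusted p = 0.00858 and 0.00343), while replicates 1 and 2 differed by less than counting error. Egr3 had 4 reads in replicate 2 and 0 in the others, too few for a test. Egr4 had 6 reads in replicate 1, or 5.21 normalized counts, and 0 reads in replicates 2 and 3, where 2.11 and 3.56 normalized counts would have been allowed, again too few reads for a test. Egr1 thus carried most Egr reads, 66 of 83, 23 of 41 and 26 of 26. The summed Egr level per kb was 18.0, 7.16 and 6.87 in replicates 1, 2 and 3, far below the PEA3 sums of 96.6 to 161.

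Promoter sequences from RefSeq (GRCm38.p6) were on hand for Egr2, Egr4, Etv1 and Etv5, 4 of the 7 genes, in windows of 250 bases before to 50 after each listed start. They are shown for Egr2, whose windows alone held any of the motifs searched, and for Etv5 as the detected gene with a window. The motifs, searched on both strands, were the CArG box of serum response factor, GCGNGGGCG of Egr proteins, CCGGAA of Ets proteins, TGACGTCA (the cyclic AMP response element) and TGANTCA of AP-1. They were found in 1.63%, 5.55%, 14.9%, 1.79% and 7.81% of all 32851 windows of the same length. A CArG box lay in 4 of the 5 Egr2 windows, of which 3 share the same box, and CCGGAA on either strand in 1. Capitals mark the CArG box and the Ets motif, and the first stretch of capitals holds 2 Ets matches on opposite strands that overlap. Sequences run 5′ to 3′ along the gene's strand and end at the base before the start, and bases in annotated exons of the gene were left out. The first Egr2 stretch is chr10:67537316-67537565 on the plus strand, with the box at positions -72 to -63 from the start. The second is chr10:67537619-67537868, also with its box at -72 to -63. The Etv5 stretch is chr16:22438369-22438618 on the minus strand and held no match. A match describes letters only, and these data hold no binding or chromatin measurement.
Egr2 upstream of the start at 67537566: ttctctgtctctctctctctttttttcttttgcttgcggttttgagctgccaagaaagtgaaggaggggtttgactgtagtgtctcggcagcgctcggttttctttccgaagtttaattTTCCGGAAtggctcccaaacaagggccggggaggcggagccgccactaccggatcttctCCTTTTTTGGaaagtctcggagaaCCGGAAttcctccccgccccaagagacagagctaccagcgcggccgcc
Egr2 upstream of the start at 67537869: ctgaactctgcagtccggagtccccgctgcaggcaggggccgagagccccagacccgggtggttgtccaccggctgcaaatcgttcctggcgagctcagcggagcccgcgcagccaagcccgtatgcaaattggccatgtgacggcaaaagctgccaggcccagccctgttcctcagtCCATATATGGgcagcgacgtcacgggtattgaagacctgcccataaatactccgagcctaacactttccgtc
Etv5 upstream of the start at 22438368: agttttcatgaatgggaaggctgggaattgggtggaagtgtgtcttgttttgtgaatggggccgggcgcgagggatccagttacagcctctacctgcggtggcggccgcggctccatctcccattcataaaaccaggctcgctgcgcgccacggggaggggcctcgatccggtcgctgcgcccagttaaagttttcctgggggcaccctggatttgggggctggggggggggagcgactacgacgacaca

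The spread between replicates was large for Egr1 and Etv4 and moderate for Etv5. The SD of log2(normalized count + 1) was 0.88 for Egr1, 0.65 for Etv4 and 0.40 for Etv5, against a median of 0.30 over all 12204 detected genes. Counting error alone would give 0.26, 0.097 and 0.095, so most of the spread lay between cultures or libraries. Low genes vary more, so each gene was set beside detected genes with a mean within 2-fold of its own. Of these, 85.9% had a lower SD than Egr1, 85.1% a lower SD than Etv4 and 63.1% a lower SD than Etv5. Without replicate 2 the SDs were 0.62, 0.70 and 0.32.

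**Figure D4:**
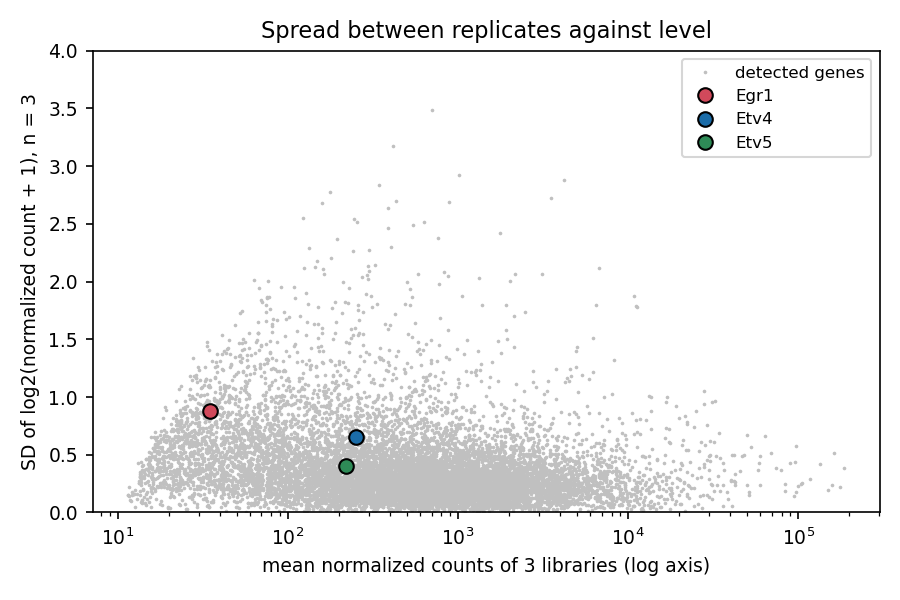
SD of log2(normalized count + 1) over 3 replicates against the mean normalized count (log axis) for all 12204 detected genes in grey, with Egr1, Etv4 and Etv5 marked. Egr1 (0.88) and Etv4 (0.65) lie above most genes of like level, and Etv5 (0.40) lies within the bulk.

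Few members could be tested, and their calls are set beside those over all genes. Egr1 (3.54-fold) and Etv4 (2.35-fold) varied by more than 2-fold between their lowest and highest library, 2 of the 3 detected members, where 22.0% of all detected genes did. The count was 0 without replicate 2 and 1 without replicate 1 (Etv4) or without replicate 3 (Egr1). Without replicate 2, Etv4 lay just under the limit at 1.996-fold, and Egr1 was at 1.86-fold. By the exact binomial test, 3 of 5 tested members differed between replicates 1 and 2, against 69.1% of all genes. For replicates 1 and 3 it was 4 of 4 against 52.0%, and for replicates 2 and 3 it was 4 of 5 against 62.6%. With so few members tested, these shares do not set the group apart from other genes.

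Other genes that respond to MEK-ERK signalling were read as a list of 24, of which 22 were detected. Ranked with the 7 members by mean level per kb, Etv4 stood at 17, Etv5 at 20 and Egr1 at 24 of 31 genes. Egr2, Egr4, Etv1 and Egr3 filled the last 4 places by mean. In replicates 1, 2 and 3, Etv4 ranked 17, 16 and 21, Etv5 ranked 20, 20 and 20, and Egr1 ranked 24, 27 and 26. Etv4 and Etv5 thus lay within the wide range of the feedback inhibitors of the pathway. Nearest were Dusp5 (83.9 normalized counts per kb), Spred2 (77.2), the ERK phosphatase gene Dusp6 (68.5) and Spry4 (52.9). Spry2 (159), Spred3 (112) and Spred1 (102) lay above these by mean, and Dusp4 (20.5) and Spry1 (6.48) below. By mean, Egr1 lay between Fos (18.5) and the immediate-early gene Arc (6.94). Arc overlapped Egr1, with 1.42, 6.22 and 13.2 normalized counts per kb in replicates 1, 2 and 3, and stood above it in replicates 2 and 3. Ier3, Phlda1 and Ccnd1, the gene of cyclin D1, led the list by mean with 14936, 1524 and 1482 normalized counts per kb. Phlda1 ranked 6 of the 31 genes in replicate 2.

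The response genes did not share 1 order of libraries. Egr1 and Etv5 were highest in replicate 1 and lowest in replicate 2, an order they had in common with Dusp5, Fosl1, Junb, Myc, Ier3 and Phlda1 and with 21.4% of all detected genes. Etv4 was highest in replicate 2 and lowest in replicate 3, like Dusp4, Spred1, Spred3, Fos, Fosb and Il11 and 18.1% of all detected genes. Dusp4, with 46.0, 101 and 21.3 normalized counts, had the widest range of that second group at 4.76-fold. Myc in the first group and Spred3 in the second ranged by only 1.04-fold and 1.07-fold, so their order of libraries says little. Of the 22 detected response genes, 9 had a more than 2-fold range, or 40.9% against 22.0% of all detected genes, and the median SD of their log2 values was 0.46 against 0.30. Each gene rested on the same 3 libraries, so a shared order is a description of these libraries.

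**Figure D5:**
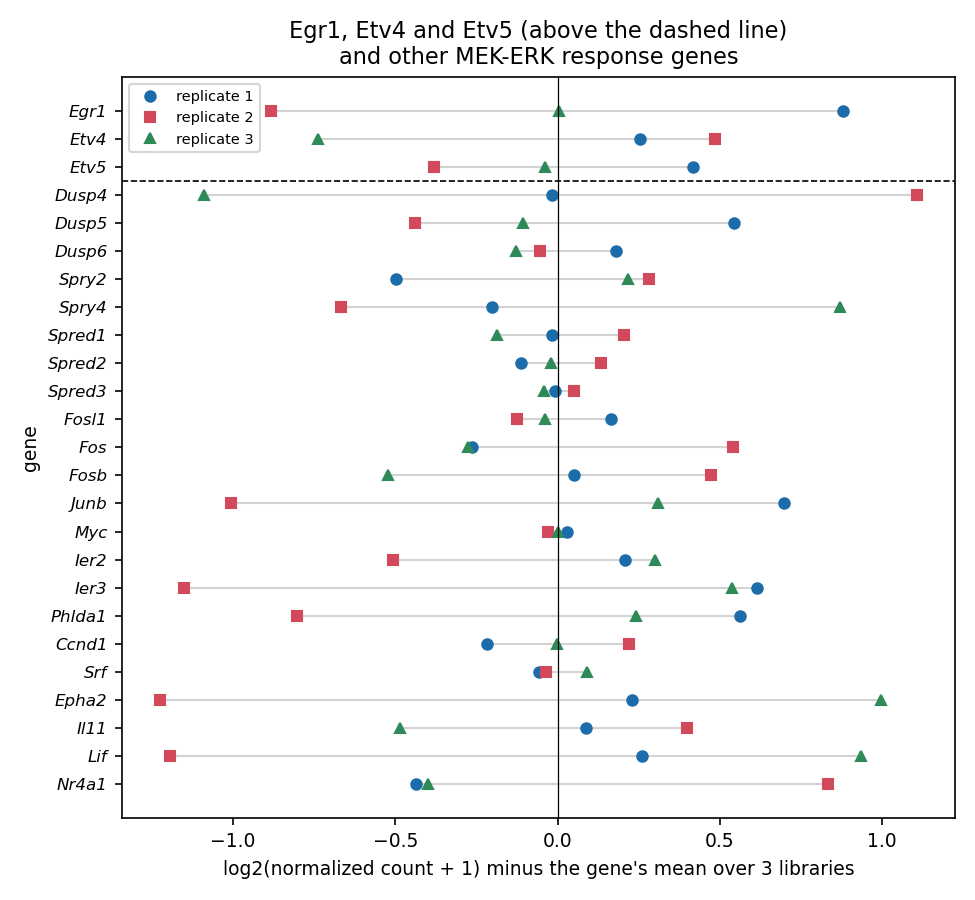
Deviation of log2(normalized count + 1) from each gene's mean over 3 libraries, for Egr1, Etv4 and Etv5 (above the dashed line) and the 22 other detected MEK-ERK response genes. Replicate 2 is the lowest library for Egr1 and Etv5 and the highest for Etv4.

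Over all protein-coding genes with a mean of at least 100 normalized counts, the nearest profiles to those of the members were sought by the root mean square difference of centred log2 values. For Egr1 they were Fbln7 (0.017), Tmem160 (0.021) and H2afj (0.053). For Etv4 they were Rnf138 (0.021), Grin2d (0.024) and Efna4 (0.025), the last an ephrin gene. For Etv5 they were Fam204a (0.0035), Klhl30 (0.0064) and Nol7 (0.0096). With 3 libraries of a single condition many genes come close, namely 15, 29 and 335 of 9459 within 0.1 of Egr1, Etv4 and Etv5.

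Genes that act on or with the Egr proteins were mostly well expressed. In a list of 13 partners and reported targets, 12 were detected and Wt1, a related zinc finger gene, had 0 reads in every library. Nab1 and Nab2 encode corepressors that bind Egr proteins, and Nab2 is itself an Egr target. In the order of replicates 1 to 3, Nab1 stood at 1457, 1628 and 1713 normalized counts and Nab2 at 709, 962 and 602, so neither was lowest where Egr1 was lowest. Pdgfb, a growth factor gene, had 684, 81.7 and 399 normalized counts, an 8.37-fold range with replicate 1 highest and replicate 2 lowest as for Egr1. Ctgf, Pdgfa and Id3 also exceeded 2-fold, at 2.08-fold, 2.01-fold and 2.04-fold, which made 4 of 12 (33.3%, against 22.0% of all detected genes), with these 3 genes just past the limit. Of the 12, 8 were lowest in replicate 2, where 37.3% of all detected genes were lowest.

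The genes read around the PEA3 proteins were all detected, 9 of 9. Cic encodes the repressor Capicua, which holds PEA3 genes silent until ERK relieves it, and its partners are encoded by Atxn1 and Atxn1l. Cic stood at 1290 normalized counts in replicate 1, 2799 in replicate 2 and 1608 in replicate 3. It was the only gene of this list with a more than 2-fold range (2.17-fold). That is 11.1% of the 9, against 22.0% of all detected genes. Cic was highest in replicate 2, as were 40.6% of all detected genes. Etv4 was also highest there and Etv5 lowest. Atxn1 and Atxn1l had means of 885 ± 125 and 987 ± 95.2 normalized counts (SD, n = 3). Rfwd2, the ubiquitin ligase gene also called Cop1, whose product marks PEA3 proteins for degradation with that of Det1, had 1434 ± 175, and Det1 had 191 ± 12.4. The kinase genes read varied by at most 1.51-fold, with 2570 ± 536 for Mapk3, 3164 ± 398 for Map2k1 and 2667 ± 492 normalized counts for Map2k2, the last 2 encoding the MEK targets of the inhibitor. Transcript levels do not report kinase activity, which was not measured in these files.

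Markers of other cell types were read beside these results, since Egr2 is known from Schwann cells. Of 5 Schwann markers, Mbp and S100b were detected, and the sum of the 5 was 179.7, 74.0 and 146 normalized counts in replicates 1, 2 and 3. This was the order of Egr1 and not that of Egr2, and the markers within the sum went different ways. The defining gene Sox10 had 0, 0.705 and 2.37, and S100b had 66.0, 14.8 and 114, highest in replicate 3. Mbp had 114, 71 and 19 reads and Mag had 4.34, 3.52 and 0 normalized counts, both lowest in replicate 3, where Egr2 had 0 reads. The 5 leukocyte markers summed to 26.9, 41.6 and 90.1, highest in replicate 3, but went different ways. Laptm5 (1.74, 4.93 and 36.7), Tyrobp (0, 2.11 and 15.4) and Cd52 (0.868, 0.705 and 9.48) were highest in replicate 3. Ptprc (1.74, 0.705 and 1.19) and Cd68 (22.6, 33.1 and 27.3), of which only Cd68 was detected, were not. The 4 endothelial markers summed to 13.9, 4.93 and 3.56 with Tie1 at 0. Of 4 melanocyte markers none was detected, with sums of 8.68, 5.64 and 20.1, and of 5 skeletal muscle markers only Des was (212, 1208 and 77.0). The part of such cells in the levels above was not tested, and in bulk RNA fewer cells of a type and less RNA per cell cannot be told apart.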

How the data were processed

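RNA was sequenced as stranded mRNA libraries with single-end reads of 50 bp. Per the labels and the study's methods, the authors aligned reads to mm10 with TopHat2 2.0.13, kept unique reads, counted them per gene with HTSeq 0.5.3p3 and normalized with DESeq. Which annotation and strand setting HTSeq used, and which libraries the size factors were computed over, is not given in the sources used here. The signal deposited per gene and library is a normalized count. Of the values, 100% per library equalled a whole number of reads (within 0.01) times a constant, and dividing by it gave back the reads, 22540518, 27037783 and 17244505 in replicates 1, 2 and 3. Another 3 columns of per-sample values match no sample here and were not used.

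Means and SDs were taken over the 3 libraries, and log2 values with a pseudocount of 1. Detection required 10 normalized counts in every library. Pairs of libraries were compared on recovered reads by two-sided exact binomial tests, given the size factors, for genes whose reads in both libraries together reached 10, and p-values were adjusted by Benjamini-Hochberg (threshold 0.05). Simulated pairs had Poisson noise only and 200 genes changed 4-fold, drawn from genes with at least 200 expected reads in the pair. The step found all 200 in each pair. It made 4 false calls among 14808 genes for replicates 1 and 2. For replicates 1 and 3 these were 14 among 14329, and for replicates 2 and 3 they were 6 among 14420. Recovery of changed genes with fewer reads, such as Egr1 and Egr2, was not simulated. Intervals are at 95%, exact Poisson for counts and exact Clopper-Pearson for shares, and cover counting error only, as the reads carry no molecular identifiers. Ratio intervals come from the binomial share. Exonic lengths, positions and the check for overlapping genes, which found none for the 7 members, used GENCODE M21 (GRCm38, the build of mm10). Python 3.11.15, scipy 1.17.1 and edgeR 4.0.16 (TMM factors only) were used.

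The genes named were the 7 members, genes of the lists and markers described, and the 3 nearest profiles of each detected member. Members and lists were chosen with earlier results of these data known. The comparisons of Egr1 with Fos and of Etv5 with Etv4 as shares of reads, and the equal-total scaling of the calls, were added after values were seen. The alternatives tried were other scalings, pseudocounts, minimums, folds and lengths, and each replicate left out. Some genes of the lists are not reported here.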

Additional observations from a re-analysis of the deposited data

How the results depend on the processing

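No paired analysis was possible because a single condition was mapped, with no second group to pair. The number of detected members stayed at 3 with a minimum of 5 and with each replicate left out, and was 2 with a minimum of 50, which Egr1 misses. The number of members with a more than 2-fold range, 2 as reported, was 4 without a minimum and with values under 3 reads set to 3 reads, and 0 to 1 with each replicate left out, by construction of fewer libraries compared. It was 3 at a fold of 1.5 and 2 under TMM scaling and equal totals. Requiring 2-fold as well left 1 call between replicates 1 and 2, 1 between replicates 1 and 3 and 2 between replicates 2 and 3. Equal library totals left 2 members called between replicates 2 and 3, with Egr1 and Etv5 lost, and TMM scaling changed no count of calls. None of the 35 recomputed means moved by more than 1 SD, which for left-out replicates follows from having 3 values. The SDs of Egr2, Egr3, Egr4 and Etv1 fell to 0.57, 0.21, 0.35 and 0.16 with a pseudocount of 10. Ranks moved in 20 of 56 recomputations, for Etv4 between 9 and 13 and for Etv5 between 12 and 14, while Egr1 stayed first of the Egr genes. Depth limits Egr2, Egr3, Egr4 and Etv1, for which a few reads decide each value.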

Other observations

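Ets genes with low and uneven counts were seen outside the PEA3 group. Spi1, which encodes the leukocyte factor PU.1, was at 0 in replicate 1, 2.11 normalized counts in replicate 2 and 11.9 in replicate 3. The leukocyte gene Tyrobp had 0, 2.11 and 15.4. Of the other leukocyte markers, Laptm5 and Cd52 were also highest in replicate 3, while Ptprc and Cd68 were not. Elf3, an epithelial Ets gene, had 18.2, 0.705 and 11.9, and Erg, known from endothelial cells, had 5.21, 0.705 and 11.9. Nr4a1, an immediate-early nuclear receptor gene, stood at 666, 1608 and 684, highest in replicate 2, where Egr1 was lowest. Spry1, a feedback inhibitor, stood at 4.34, 26.1 and 26.1, lowest in replicate 1, where Egr1 was highest. These genes were picked after their values were seen.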
